A study of Homo sapiens with 6 samples.

Results

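Transcripts of 9 receptor genes that serve neurotrophins, the GDNF family and related ligands were examined: NTRK2, NTRK3, NGFR, RET, GFRA1, GFRA2, GFRA3, ALK and LTK. They were chosen by name, through the Ensembl identifiers of the deposited count and FPKM tables, and 8 of the 9 had a row among the 22718 genes. GFRA3 had no row and was not analysed here. The data were 6 RNA sequencing libraries labelled HT1197, an established line from a human bladder carcinoma. In 3 vehicle libraries (A, B and C) the cells had received 1% DMSO for 48 hours. In 3 panobinostat libraries (A, B and C) they had received this histone deacetylase inhibitor for 48 hours at 2 times the half-maximal inhibitory concentration of the line. No genetic change distinguished the arms. All libraries came from 1 cell line, and the labels speak of dishes seeded in triplicate without tying a library to a dish, so p-values measure the spread between libraries, which may be technical.

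Neurotrophins signal through Trk receptor tyrosine kinases, of which NTRK2 (TrkB) binds BDNF and NTF4 and NTRK3 (TrkC) binds NTF3, while NGFR, a receptor with a death domain, binds every neurotrophin with lower affinity. RET is the kinase of the GDNF family; it is engaged through co-receptors held to the membrane by a lipid anchor, GFRA1 for GDNF, GFRA2 for neurturin and GFRA3 for artemin. ALK and its relative LTK are kinases activated by the small secreted proteins ALKAL1 and ALKAL2. These receptors are best known from neural crest derivatives such as sympathetic and enteric neurons, and ALK is a driver gene of neuroblastoma.

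Total counts per library ran from 13417898 to 18186087. Libraries B and C of an arm were closer to each other (chi-square per gene of 2.98 for vehicle and 2.47 for panobinostat) than either was to library A (7.20 to 9.69), so no pair differed by as little as counting noise. The label was checked against marker lists. Of 16 luminal urothelial markers 10 had a row, with a summed level of 12.4 to 16.7 FPKM with vehicle, and FOXA1 and UPK1B stood at 0 counts there. GATA3, which sympathetic cells also express, made up most of that sum at a mean of 10.6 FPKM. Of 12 basal markers 7 had a row (2.57 to 2.80 FPKM), and TP63 stood at 0 counts with vehicle. All 15 adrenergic neuroblast markers had a row, and their sum was 2059 to 2294 FPKM with vehicle. TH, among the 15, was nearly absent, with 5, 6 and 3 counts in vehicle libraries A, B and C, and was too scarce to test. The libraries thus went against the urothelial label, and the cells are called here by the label on the libraries. Since this is bulk RNA, fewer cells with a transcript and less of it per cell cannot be told apart.

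With panobinostat the receptors moved in different directions. GFRA2, ALK and RET fell, by 4.56-fold, 3.67-fold and 1.98-fold, and NTRK3, NGFR and LTK rose, by 3.60-fold, 1.71-fold and 1.46-fold. GFRA1 and NTRK2 did not pass the test. Changes were tested with edgeR's quasi-likelihood test over 16084 genes, with Benjamini-Hochberg adjustment, and a gene was called changed where its adjusted p did not exceed 0.05. All 8 genes were above the count minimum in every library of both arms, so none was tested only through the arm where it was high. Of all genes tested 65.2% were called, 33.7% up and 31.5% down, so 6 called receptors of 8, 3 in each direction, lie near that background. The median log2 fold change of the 8 was -0.17, against 0.01 over all genes tested. The arms did not overlap for 7 of the 8, as for 68.8% of all genes. A called change of 2-fold or more was seen in GFRA2 and ALK downward and in NTRK3 upward (5.27% and 16.8% of all genes in those directions).

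**Figure D1:**
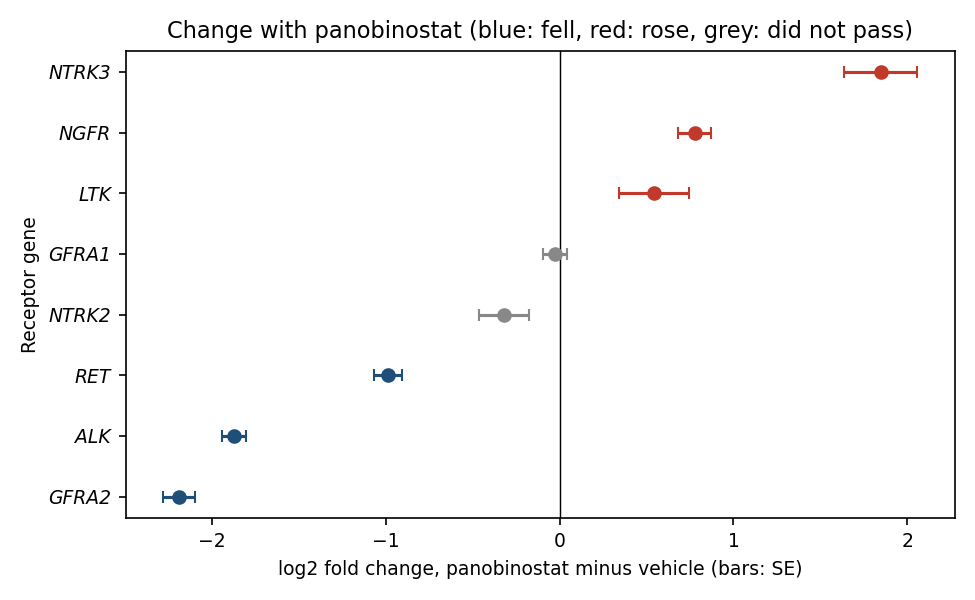
Log2 fold change of each receptor gene, panobinostat minus vehicle, with its standard error as bars (edgeR, 3 libraries per arm). GFRA2 lies lowest at -2.19 and NTRK3 highest at 1.85, and GFRA1 lies at -0.03.

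GFRA2, the neurturin co-receptor (ENSG00000168546, chromosome 8, 21690403 to 21812357, GRCh38), was the most abundant of the set with vehicle. It stood at 265.8, 236 and 234 CPM (reads of the gene relative to the scaled library total) in vehicle libraries A, B and C, and at 47.7, 53.1 and 60.0 CPM in panobinostat libraries A, B and C. Every treated library lay below every vehicle library. The fall was 2.19 ± 0.09 on the log2 scale (estimate ± SE, edgeR adjusted p = 6.1e-11). It rested on 11772 counts in the vehicle arm as a whole and 2687 in the treated one.

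GFRA1, the GDNF co-receptor (ENSG00000151892, chromosome 10, 116056925 to 116273467), stood at 73.3, 77.7 and 76.5 CPM with vehicle and at 72.4, 74.3 and 76.5 CPM with panobinostat. The arms overlapped. The estimate of -0.03 ± 0.07 did not pass (edgeR adjusted p = 0.752), and it lay above 0 when libraries were scaled by total count only (0.09) or by the upper quartile (0.11), which moved the median of all genes up by 0.11 and 0.14. Within the GFRA pair, then, one co-receptor fell and the other showed no detectable change at this depth.

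RET, the kinase both co-receptors use (ENSG00000165731, chromosome 10, 43077027 to 43130351), stood at 119.8, 113 and 109 CPM with vehicle and at 61.4, 58.7 and 52.5 CPM with panobinostat. The arms were well apart. The fall was 0.99 ± 0.08 on the log2 scale (edgeR adjusted p = 6.0e-08).

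ALK (ENSG00000171094, chromosome 2, 29192774 to 29921566) had 203.8, 194 and 197 CPM with vehicle and 55.2, 53.1 and 53.9 CPM with panobinostat. Each arm was tight and the arms lay far apart. The fall was 1.88 ± 0.07 on the log2 scale (edgeR adjusted p = 2.1e-11). LTK (ENSG00000062524, chromosome 15, 41503638 to 41513887), the relative of ALK, was a scarce transcript with 40 to 41 counts in each vehicle library and 49, 72 and 61 counts in panobinostat libraries A, B and C. In scaled units it stood at 2.89, 2.34 and 2.37 CPM with vehicle and at 3.50, 4.26 and 3.27 CPM with panobinostat. The treated libraries were the higher, by a narrow margin. Its rise of 0.54 ± 0.20 (edgeR adjusted p = 0.0272) lost its call when vehicle library B, vehicle library C or panobinostat library B was left out (edgeR adjusted p = 0.0841, 0.0889 and 0.140), and with DESeq2 (adjusted p = 0.111). Over all alternatives its adjusted p ran from 0.0083 to 0.140.

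RefSeq windows of 300 bases (250 before and 50 after the start, GRCh38.p14) were read for 6 of the receptors. NGFR had no window in that reference, and GFRA2 was left out of this step without a search. ALK and RET are printed as genes that fell and NTRK3 and LTK as genes that rose, each 5′ to 3′ on the gene's strand from the window nearest the annotated gene start. Capitals mark GC boxes (GGGCGG or its reverse complement CCGCCC, which bind factors of the SP family) and the palindromic E-box CAGCTG, and overlapping matches form 1 run. The windows are chr2:29921537-29921836 on the minus strand, chr10:43076819-43077118 on the plus strand, chr15:88256690-88256989 on the minus strand and chr15:41513778-41514077 on the minus strand, in that order.
ALK: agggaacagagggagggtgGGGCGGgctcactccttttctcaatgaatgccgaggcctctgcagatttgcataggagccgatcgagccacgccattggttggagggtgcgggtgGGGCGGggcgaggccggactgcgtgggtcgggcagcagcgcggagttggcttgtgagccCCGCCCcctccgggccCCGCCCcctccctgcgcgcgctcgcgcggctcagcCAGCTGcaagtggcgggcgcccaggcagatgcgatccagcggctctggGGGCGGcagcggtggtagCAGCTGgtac
RET: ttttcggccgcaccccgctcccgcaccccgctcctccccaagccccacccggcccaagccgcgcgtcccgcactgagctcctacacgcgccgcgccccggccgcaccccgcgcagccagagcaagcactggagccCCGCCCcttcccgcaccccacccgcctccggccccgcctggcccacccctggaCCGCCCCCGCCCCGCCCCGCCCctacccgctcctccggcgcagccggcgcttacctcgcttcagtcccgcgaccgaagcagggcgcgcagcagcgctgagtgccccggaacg
NTRK3: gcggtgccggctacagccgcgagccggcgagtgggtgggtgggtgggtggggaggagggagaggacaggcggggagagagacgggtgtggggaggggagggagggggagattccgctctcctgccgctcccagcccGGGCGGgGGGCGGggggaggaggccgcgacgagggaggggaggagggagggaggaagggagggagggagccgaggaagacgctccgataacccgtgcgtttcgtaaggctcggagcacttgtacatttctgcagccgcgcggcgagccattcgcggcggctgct
LTK: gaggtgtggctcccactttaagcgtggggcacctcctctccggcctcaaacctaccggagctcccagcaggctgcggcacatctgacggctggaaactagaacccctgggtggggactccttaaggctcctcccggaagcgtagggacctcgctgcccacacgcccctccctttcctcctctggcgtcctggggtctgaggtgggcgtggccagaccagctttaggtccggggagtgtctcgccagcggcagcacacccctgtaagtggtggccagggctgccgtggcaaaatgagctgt

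The ALK window held 5 GC boxes and 2 E-boxes of the CAGCTG form, and the RET window held 5 GC boxes and 0 E-boxes of that form. The NTRK3 window had 2 GC boxes, and the LTK window had 0 of either motif. Of the receptors that did not pass, NTRK2 had 1 GC box and 0 CAGCTG, and GFRA1 had 0 GC boxes and 1 CAGCTG. In all, 4 of 6 windows held a GC box and 2 held CAGCTG, with GFRA2 not among them. Of all 35116 RefSeq windows of this length, 45.0% held a GC box and 17.9% held CAGCTG. Counted in CG dinucleotides, ALK had 28, RET 41, NTRK3 30, LTK 15, GFRA1 25 and NTRK2 10, against a median of 14 over all windows. These are matches of letters in the reference, and the start sites used in these cells were not measured.

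NTRK3 (ENSG00000140538, chromosome 15, 87859751 to 88256768), the receptor of NTF3, was the scarcest of the set with vehicle. It had 33, 24 and 29 counts in vehicle libraries A, B and C and 97, 117 and 105 in panobinostat libraries A, B and C. In scaled units this was 2.38, 1.40 and 1.67 CPM against 6.92, 6.92 and 5.63 CPM, and the arms did not overlap. The rise was 1.85 ± 0.21 on the log2 scale (edgeR adjusted p = 2.2e-06). NTRK2 (ENSG00000148053, chromosome 9, 84668551 to 85027070), the BDNF receptor, stood at 6.64, 6.90 and 7.62 CPM with vehicle and at 5.49, 5.50 and 5.95 CPM with panobinostat. Although its arms did not overlap, the estimate of -0.32 ± 0.14 did not pass (edgeR adjusted p = 0.0601). Without vehicle library A it passed (-0.37, edgeR adjusted p = 0.0399), and over all alternatives the adjusted p ran from 0.0399 to 0.528. Both genes make truncated receptors without the kinase as well as full receptors, and counts per gene do not separate these forms.

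NGFR (ENSG00000064300, chromosome 17, 49495293 to 49515017) stood at 19.8, 17.6 and 16.9 CPM with vehicle and at 31.7, 31.2 and 29.9 CPM with panobinostat. All treated libraries were above all vehicle libraries. The rise was 0.78 ± 0.09 on the log2 scale (edgeR adjusted p = 4.4e-06).

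Levels of different genes were compared per length, in FPKM (fragments per kilobase of gene length, relative to the library total). With vehicle the order was GFRA2 at 41.2 ± 3.36, ALK at 27.5 ± 0.910, RET at 16.5 ± 0.902 and GFRA1 at 7.53 ± 0.163 FPKM, then NGFR at 4.19 ± 0.391, LTK at 0.697 ± 0.0910, NTRK2 at 0.333 ± 0.0224 and NTRK3 at 0.0654 ± 0.0187 FPKM (mean ± SD, n = 3). No neighbours in that order overlapped between their libraries. With panobinostat the first 5 came together: GFRA2 at 9.73 ± 1.03, RET at 8.97 ± 0.791, ALK at 8.10 ± 0.191, GFRA1 at 7.98 ± 0.151 and NGFR at 7.74 ± 0.298 FPKM. Each of these overlapped its neighbour in the order, so the order of neighbours is not resolved. GFRA2 was nonetheless above ALK, GFRA1 and NGFR in every treated library, and RET and ALK were above NGFR in every one. LTK (1.09 ± 0.161), NTRK2 (0.288 ± 0.0103) and NTRK3 (0.252 ± 0.0313 FPKM) stayed lower and did not overlap with one another.

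**Figure D2:**
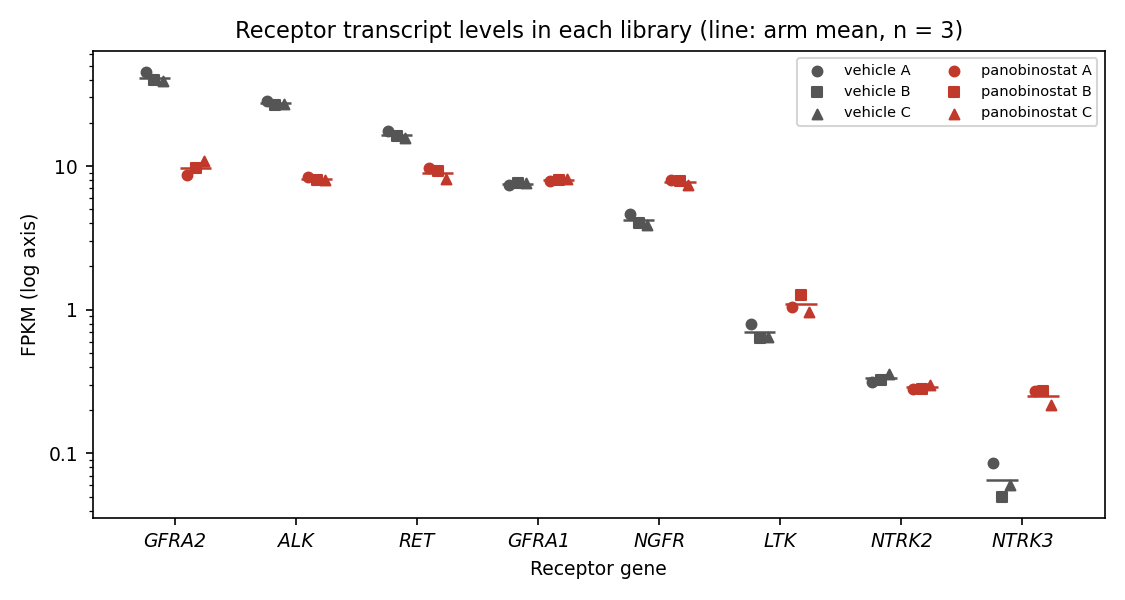
FPKM of each receptor gene in each library on a log axis, with the arm mean as a line (grey vehicle, red panobinostat, 3 libraries each). The 5 more abundant genes spread from 4.19 to 41.2 FPKM in the vehicle means and lie between 7.74 and 9.73 FPKM with panobinostat.

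Among all 22718 rows GFRA2 stood at percentile 95.2 of FPKM with vehicle and 77.6 with panobinostat, ALK at 92.2 and 74.4, and RET at 86.2 and 76.2. NGFR went from percentile 64.6 to 73.5. The gene length behind each FPKM value, as implied by the counts and FPKM together, was 20.4 kb for NTRK2 and 26.8 kb for NTRK3, against 6.66 kb for RET and 6.93 kb for ALK. The summed FPKM of the 8 receptors was 98.0 ± 5.43 with vehicle and 44.2 ± 0.373 with panobinostat. GFRA2 made up 41.4 to 43.3% of that sum over the vehicle libraries and 19.8 to 24.6% over the treated ones, and NGFR 4.12 to 4.45% and 16.9 to 18.1%.

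Ratios of 2 genes within a library do not depend on how libraries are scaled. GFRA2 to GFRA1 was 6.14, 5.15 and 5.18 in vehicle libraries A, B and C and 1.12, 1.21 and 1.33 in panobinostat libraries A, B and C. GFRA2 to RET went from 2.43 to 2.59 over the vehicle libraries to 0.907 to 1.33 over the treated ones, and GFRA1 to RET from 0.421 to 0.482 to 0.812 to 1.00. The balance of the co-receptors and of each with RET was thus different in every treated library from every vehicle library. ALK to RET was 1.63 to 1.73 with vehicle and 0.865 to 0.987 with panobinostat, and NTRK3 to NTRK2 was 0.155 to 0.273 and 0.720 to 0.959. In all, 8 pairs were compared, chosen after their values were seen. Each gave p = 0.1 in an exact two-sided permutation test (adjusted 0.1), the smallest that 3 libraries against 3 allow.

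**Figure D3:**
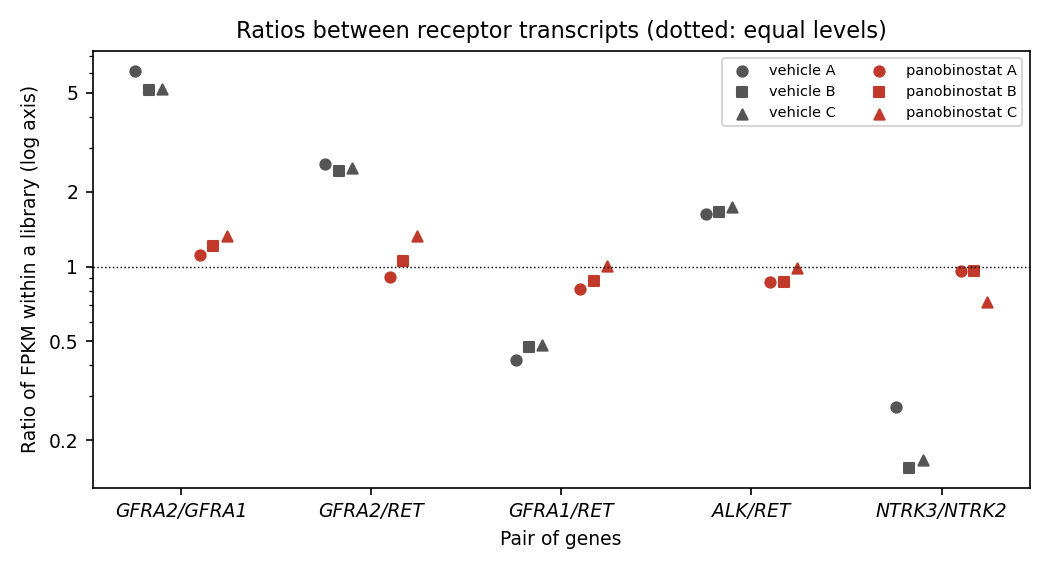
Ratio of FPKM between 2 receptor genes within each library, on a log axis (grey vehicle, red panobinostat, 3 libraries each; dotted line at equal levels). GFRA2 to GFRA1 lies at 5.15 or more with vehicle and at 1.33 or less with panobinostat.

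The ligands were read from a list of 13, of which 10 had a row and 5 were tested. BDNF, the NTRK2 ligand, stood at 31.3, 30.8 and 31.6 CPM with vehicle and at 15.6, 18.0 and 18.3 CPM with panobinostat, a fall of 0.85 ± 0.09 on the log2 scale (edgeR adjusted p = 1.7e-06). MDK, midkine, a heparin-binding growth factor that binds PTPRZ1 and has been proposed as an ALK ligand, fell from 442 ± 66.1 to 179 ± 8.16 CPM (edgeR adjusted p = 2.4e-08). NRTN, neurturin, the ligand of GFRA2, went the other way from its receptor: 10, 8 and 11 counts in vehicle libraries A, B and C and 51, 66 and 56 with panobinostat, a rise of 2.53 ± 0.27 (edgeR adjusted p = 1.1e-06). GDF15, which acts on RET through another co-receptor, rose by 1.67 ± 0.37 (edgeR adjusted p = 0.000999). NRTN and GDF15 were below the count minimum in part of the vehicle arm and passed the filter through the panobinostat arm, so a fall could hardly have been called. PSPN, persephin, did not pass (-0.19 ± 0.19). Other ligands were too scarce to test: summed by arm, vehicle first, GDNF had 4 and 5 counts, PTN 8 and 8, ALKAL2 20 and 11, and NTF4 1 and 23. NTF3, ARTN and ALKAL1 had no row.

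Of 13 other receptors and co-receptors of these ligands tested, 8 rose and 4 fell. PTPRZ1, a phosphatase receptor of midkine and pleiotrophin, rose by 1.75 ± 0.19 on the log2 scale. SORCS3, of the sortilin family, rose by 1.33 ± 0.33, but it was below the count minimum in part of the vehicle arm. SORCS2, a partner of NGFR in the sensing of immature neurotrophins, fell by 1.72 ± 0.18, and LINGO1, another partner of NGFR, fell by 1.30 ± 0.17. SORT1, sortilin, rose from 110 ± 6.03 to 154 ± 3.42 CPM. The median of this list was 0.33.

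Of 30 adaptors and signal proteins tested, 13 rose and 7 fell (median 0.15), and with upper quartile scaling 4 fell. SHC4 and SHC2, adaptors of the SHC family, rose by 2.29 ± 0.23 and 1.11 ± 0.14 on the log2 scale. NEDD4, a ubiquitin ligase, rose from 27.8 ± 5.49 to 78.1 ± 9.03 CPM, and SH2B3, an adaptor that restrains receptor signals, rose by 1.06 ± 0.12. Of 17 NGFR partners and processing enzymes, 3 rose and 7 fell (median -0.12). IRAK1, a kinase of the NGFR and Toll-like receptor signals, fell from 161 ± 11.0 to 49.1 ± 8.75 CPM. BEX1 and BEX3, small proteins that bind NGFR, fell by 1.48 ± 0.07 and 1.22 ± 0.08, and RIPK2, a kinase that binds its death domain, rose by 0.82 ± 0.11.

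Of 6 proteases and inhibitors of neurotrophin maturation tested, 3 rose and 1 fell (median 1.25). PLAT, tissue plasminogen activator, rose from 11.5 ± 0.880 to 63.6 ± 1.93 CPM, and the convertase PCSK5 rose by 2.25 ± 0.18 on the log2 scale. The convertase PCSK6 fell by 1.05 ± 0.08.

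Of 22 genes of the RAS-MAPK and PI3K core, 11 fell and 4 rose (median -0.17), but 7 fell when libraries were scaled by total count only and 6 with upper quartile scaling. The kinase genes AKT1 and AKT2 fell by 0.62 ± 0.09 and 0.61 ± 0.08 on the log2 scale, and RPS6KA3 rose by 0.52 ± 0.07. Of 18 tested transcripts known to rise with receptor signalling, 13 rose and 4 fell (median 0.64). Over all genes tested 33.7% rose and 31.5% fell. EGR1, among the 13, was below the count minimum in the vehicle arm and was tested through the panobinostat arm. VGF, a neuropeptide precursor, rose by 3.72 ± 0.12. FOS rose by 3.37 ± 0.22, and DUSP5 and SPRY4, feedback inhibitors of MAPK signals, rose by 3.10 ± 0.23 and 2.87 ± 0.15. The 4 that fell were PLAUR (-1.66 ± 0.13), DUSP4 (-1.12 ± 0.08), STMN2 (-0.90 ± 0.08) and NR4A1 (-0.53 ± 0.14). Whether receptor signalling itself changed was not tested.

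**Figure D4:**
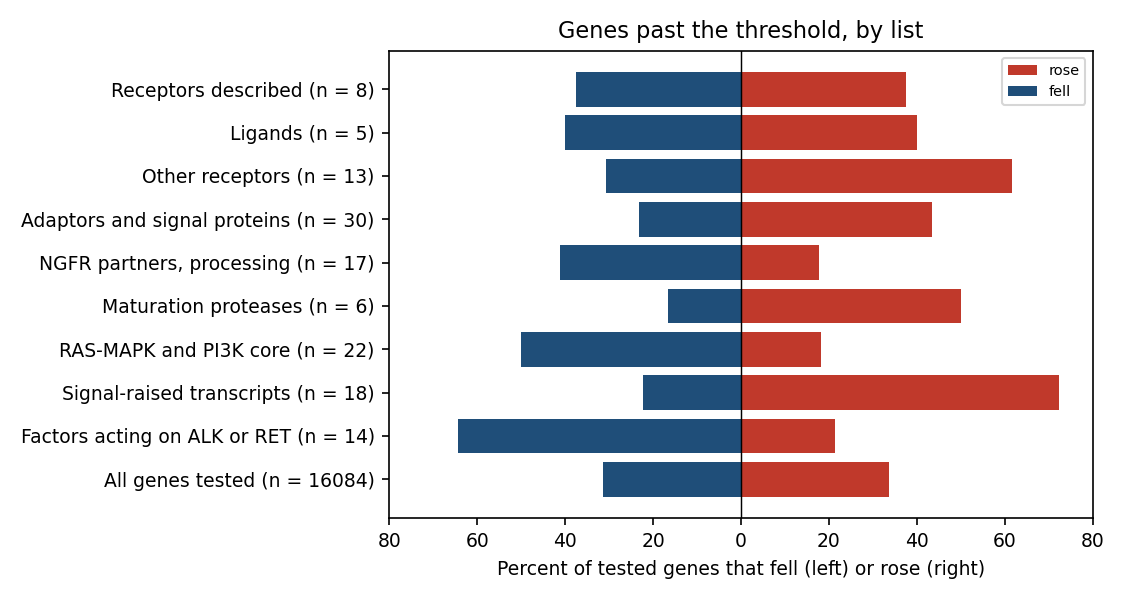
Percent of the tested genes of each list that fell (blue, to the left) or rose (red, to the right) with panobinostat, beside all genes tested (edgeR adjusted p of 0.05 or less). All genes tested stand at 31.5% down and 33.7% up.

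Of 14 transcription factors that act on ALK or RET in sympathetic cells or related lineages, 9 fell and 3 rose (median -0.70). TFAP2B, an AP-2 factor of the sympathetic lineage, fell by 2.12 ± 0.12 on the log2 scale. The retinoic acid receptor genes RARG and RARB rose by 2.34 ± 0.19 and 1.97 ± 0.18.

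Markers of cell types were read beside the receptors. Of all genes tested 33.7% rose and 31.5% fell, and lists with 3 or 4 tested genes are too short to set against those shares. Of the 14 adrenergic neuroblast markers tested, 9 fell and 3 rose, and the list's summed level was 1839 to 1918 FPKM with panobinostat, below the vehicle libraries. Schwann cells and glia also express NGFR. Of their 12 markers 9 had a row and 7 were tested: 6 rose and 1 fell. Their sum went from 21.1 to 24.7 FPKM with vehicle to 33.7 to 36.6 FPKM with panobinostat. SOX10, MBP and FABP7 had no row, and S100B, ERBB3 and FOXD3 were tested through the panobinostat arm, with 8, 11 and 13 counts over the vehicle arm. Of 8 fibroblast markers tested 5 rose and 3 fell (62.1 to 65.3 against 95.6 to 102.0 FPKM). Luminal urothelial markers stood at 12.5 to 16.1 FPKM with panobinostat (1 of 4 tested rose, 1 fell) and basal markers at 4.45 to 4.83 FPKM (1 of 3 rose, 0 fell). Leukocyte markers summed to 0.570 to 1.09 FPKM with vehicle and 0.337 to 0.699 FPKM with panobinostat, endothelial markers to 0.105 to 0.154 and 0.554 to 0.564 FPKM, and muscle markers to 4.13 to 5.17 and 6.77 to 7.36 FPKM. In each of these lists 2 of 3 tested genes rose. All tested leukocyte and endothelial markers, and DES of the muscle list, were however below the count minimum in 1 library or more. The part of any of these markers in the change of a receptor was not tested.

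The gene with the nearest profile to each receptor was the one with the smallest Euclidean distance in centred log2 CPM over the 6 libraries. For GFRA2 it was SCARA3 (distance 0.063), for ALK GREB1 (0.11), for GFRA1 TMED2 (0.037) and for NGFR RPL23 (0.051). For NTRK3 it was CCDC87 (0.15), for NTRK2 STIP1 (0.074) and for LTK EVI5L (0.17), and the one for RET is not reported here. These distances describe only the 6 libraries, whose 2 arms all the profiles share.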

How the data were processed

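RNA was sequenced in 6 libraries. The authors deposited counts per gene, whose file headers name featureCounts 1.5.0-p3; the submitters' processing notes give 1.5.1 and also name Novoalign 2.8, Subread and hg38. Counting used the strand (option 2), kept the largest overlap and took its genes from Ensembl release 84, per the file headers. The command names 9 alignment files, of which 6 have columns here. The deposited FPKM values are the authors' own and, for the receptors, followed count over length and total.

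Ensembl identifiers gave the symbols, and GENCODE 29 gave GRCh38 coordinates (22459 of 22718 identifiers found). edgeR 4.0.16 in R 4.3.3 was run on all 6 libraries after filterByExpr (minimum count 10, minimum total 15) with TMM scaling and the arm as the only term. Each SE is the size of the log2 fold change over the square root of F. The main edgeR fit was also run on counts simulated with known fold changes in a small share of genes, balanced between directions. That run did not test the scaling where most genes change, and here 65.2% were called.

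The receptors and lists were chosen with earlier results of these data known. Named were all receptors, ligands with a row and, from each list, at most 4 called genes, taken by size of change among those averaging 1 CPM or more. Some genes the rule names are not reported here. SORT1, the signalling transcripts that fell, the ratios and single marker genes were named after their values were seen. The alternatives were other scalings, other filters, DESeq2 1.42.0, limma 3.58.1 on log2(FPKM + 1) and log2(FPKM + 0.1), the library letter as a block, a threshold of 0.01, and leaving out each library.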

Additional observations from a re-analysis of the deposited data

How the results depend on the processing

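GFRA2, ALK, RET, NGFR and NTRK3 kept their direction and their call under every alternative that tested them. Counts of called receptors stayed at 2 or 3 up and 3 or 4 down. LTK (0.54) did not pass with DESeq2 (0.53, adjusted p = 0.111) or at an adjusted p of 0.01, and it ran from 0.42 to 0.63 with 1 library left out. NTRK2 (-0.32, not called) ran from -0.37 to -0.27 with 1 library left out, and was -0.21 with total count only, -0.18 with upper quartile scaling, -0.16 on log2(FPKM + 0.1) and -0.05 on log2(FPKM + 1). GFRA1, not called, changed sign with total count only (0.0854), upper quartile scaling (0.11), a filter at a mean of 1 CPM (0.0043) and limma on log2(FPKM + 1) with or without a filter (0.0749) or on log2(FPKM + 0.1) (0.0835); it never passed. On log2(FPKM + 1) the rise of NTRK3 was 0.23, since its FPKM lie under the pseudocount. Of 35 other genes followed one by one 34 kept their call in all alternatives, and 10 of 272 list counts moved by over 1.5 times. Upper quartile scaling made 63.2% of all calls rises, against 51.7%.

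Whether the letters pair the libraries was not settled: deviations of same-letter libraries correlated at 0.08, -0.02 and 0.10 for A, B and C. Libraries of different letters correlated at -0.12 to 0.05, and 3 libraries per arm are too few to decide. With the letter as a replicate block 3 receptors rose and 3 fell, and over all genes 5432 rose and 5109 fell, against 5416 and 5066. Low counts limit NTRK3, LTK and most ligands.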
